A study of Mus musculus with 16 samples.

Results

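The secreted Wnt ligands, their Frizzled (Fzd) receptors and the secreted inhibitors of the Sfrp and Dkk families were followed across 4 sorted populations of the mouse thymic epithelium, whose medullary cells are called mTEC. Every protein-coding gene whose symbol is Wnt, Fzd, Sfrp or Dkk followed by a number was taken as a member. By GENCODE M21 symbols there were 37 among the 43432 genes in the files, namely 19 Wnt, 10 Fzd, 4 Sfrp and 4 Dkk genes. Of these, 32 had at least 10 reads in at least 4 of the 16 libraries and are described by their levels (16 Wnt, 9 Fzd, 4 Sfrp and 3 Dkk genes), and all 32 could be tested. The other 5 were close to undetected over all 16 libraries together, with 118 reads of Wnt3a, 48 of Dkk4, 46 of Wnt8a, 33 of Fzd9 and 20 of Wnt16. The nearest genes on either side of the read minimum were Wnt1 inside it, with 7 libraries of 10 or more reads, and Wnt3a outside it, with 3.

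All mice were C57BL6.Aire-CreERT2.Ai14 animals of both sexes, 5 to 6 weeks old. They carried a Cre recombinase that is activated by tamoxifen and made under control of Aire, the transcription factor with which mTEC display genes of other tissues, and Ai14, a reporter allele that makes a red fluorescent protein (RFP) in any cell that has had active Cre and in its descendants. Every animal received 2 mg tamoxifen and was taken 7 days later, so no group lacks Cre, reporter or drug. From live CD45- EPCAM+ cells, which lack the pan-leukocyte protein and carry the epithelial one, 4 gates were taken on RFP and surface MHC class II: RFP+ MHCIIlo, RFP- MHCIIlo, RFP+ MHCIIhi and RFP- MHCIIhi, with 4 libraries each, and each library came from 12 pooled thymi. RFP marks cells in which the Aire-driven Cre was active at the pulse, and their descendants. RFP- cells may have expressed Aire before or after it, and a difference between gates is one between mixtures of cells, in which fewer cells of a type and less RNA per cell cannot be told apart.

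Libraries held 7.93 to 19.46 M counted reads, and those of RFP+ MHCIIlo came from 19400 to 20500 sorted cells against at least 80500 elsewhere. Epcam averaged 594, 467, 519.7 and 343 CPM and Aire 50.8, 37.9, 587 and 979 CPM in RFP+ MHCIIlo, RFP- MHCIIlo, RFP+ MHCIIhi and RFP- MHCIIhi, in that order (CPM, read counts scaled to a common library size with TMM factors). The 5 epithelial markers together averaged 2003, 3082, 1663 and 1229 CPM in the same order. With the RFP label in MHCIIlo, Epcam and Krt8 were higher and Krt5 and Krt14 lower. Of 5 mTEC markers, Aire, Fezf2 and Tnfrsf11a were lower in MHCIIlo than in MHCIIhi, with and without the label. Cldn3 and Cldn4 were higher in both comparisons. Tuft cell and cornified epithelial markers summed highest in RFP+ MHCIIlo, basal epithelial, mesenchymal and mesothelial markers in RFP- MHCIIlo, and cortical epithelial and thymocyte markers in RFP- MHCIIhi. No listed marker was at 0 in all 16 libraries, though Ccl21a, a chemokine of mature MHCIIlo mTEC, was at 0 or close to it throughout, and reads of its near-identical gene copies may not have been assigned to it.

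Wnt proteins are lipid-modified ligands that bind Frizzled receptors on the surface of neighbouring cells. With the coreceptors Lrp5 and Lrp6 they stop the breakdown of beta-catenin, which then acts on genes with TCF/LEF factors, and through other partners some of them steer cell polarity and movement instead. Sfrp proteins resemble the ligand-binding part of Frizzled and bind Wnts outside the cell, while Dkk proteins act at the coreceptors. In the thymus, Wnt signals, Wnt4 among them, are known to act on the epithelium, including on Foxn1, its master transcription factor.

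Within MHCIIlo cells, 7 of the 32 members were higher and 16 lower with the RFP label (edgeR quasi-likelihood fit over all 16 libraries and 19617 genes, Benjamini-Hochberg adjusted p under 0.05). That is 71.9% of the members, and 51.6% of all genes were called in this comparison, 28.9% higher and 22.7% lower. Their median log2 difference was -0.83, against 0.07 over all genes. Between labelled cells, RFP+ MHCIIlo against RFP+ MHCIIhi, 5 were higher and 17 lower (68.8% of members, against 55.6% of all genes, 27.5% higher and 28.1% lower), and the medians were -0.62 and 0.01. Within MHCIIhi cells, 4 were higher and 11 lower with the label (46.9% of members, against 45.0% of all genes, 23.8% higher and 21.2% lower), a share near that of all genes, and the medians were -0.27 and -0.02. Between unlabelled cells, RFP- MHCIIlo against RFP- MHCIIhi, 11 were higher and 16 lower (84.4% of members, against 69.1% of all genes, 33.5% higher and 35.6% lower). The count of 7 was 4 without RFP- MHCIIlo replicate 3, and the count of 5 was 3 without RFP+ MHCIIhi replicate 2. Comparisons that have a population in common also have its libraries in common. Wnt1, Wnt2, Wnt3, Wnt7a, Wnt8b, Wnt9b and Dkk1 were among the members lower in MHCIIlo in both gate comparisons. They would not have met the read minimum on the MHCIIlo libraries alone. Their place among the lower members was thus partly set by that minimum.

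Among the RFP+ MHCIIlo libraries, replicate 4 differed most from the rest, with a chi-square per degree of freedom of 24.73 to 36.78 against the other 3, where all pairs within the 4 populations ran from 3.18 to 36.78. Replicates 1 and 4 were also left out together, although they were the pair least alike (36.78). Replicate 1 gave 10.76 and 10.67 against replicates 2 and 3. Without both, 6 members were higher and 17 lower with the label in MHCIIlo, and 4 were higher and 17 lower in RFP+ MHCIIlo against RFP+ MHCIIhi. Single calls that were lost then were those of Sfrp4 (log2 -1.20, adjusted p = 0.1) and Wnt8b (log2 0.18, adjusted p = 0.84) for the label in MHCIIlo, and of Fzd10 (log2 0.49, adjusted p = 0.059) and Wnt7a (log2 -1.21, adjusted p = 0.054) between labelled cells. Wnt10b, which did not pass for the label in MHCIIlo with all libraries, did so then (log2 -1.47, adjusted p = 0.015), and Wnt9a was further apart (log2 -2.60, adjusted p = 8.9e-07).

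RFP- MHCIIlo held the highest mean of 13 members, RFP- MHCIIhi of 12, RFP+ MHCIIhi of 5 and RFP+ MHCIIlo of 2, while RFP+ MHCIIlo held the lowest mean of 15. The 13 of RFP- MHCIIlo were Wnt2b, Wnt4, Wnt5a, Wnt5b, Fzd2, Fzd3, Fzd4, Fzd7, Fzd8, Fzd10, Sfrp1, Sfrp2 and Dkk3, so 6 of the 9 reported receptors had their highest mean there. The 12 of RFP- MHCIIhi were mostly ligands: Wnt1, Wnt2, Wnt3, Wnt7a, Wnt8b, Wnt9a, Wnt9b and Wnt10b, with Fzd1, Fzd5, Sfrp4 and Dkk2. Wnt6, Wnt10a, Wnt11, Fzd6 and Dkk1 had theirs in RFP+ MHCIIhi, and Wnt7b and Sfrp5 in RFP+ MHCIIlo. For 17 of the 32 the libraries of the 2 highest populations overlapped, and these 17 include both members of RFP+ MHCIIlo and 8 of the 12 of RFP- MHCIIhi. The first place of such a member is an order of means and not a separation. For 9 of the 13 members of RFP- MHCIIlo no other population overlapped it: Dkk3, Fzd2, Fzd3, Fzd4, Fzd7, Fzd8, Sfrp1, Wnt4 and Wnt5a. How often genes at large show such an order or separation was not counted, so these counts describe the members alone. The 69.1% of all genes called between RFP- MHCIIlo and RFP- MHCIIhi is another measure and gives no such share.

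**Figure D1:**
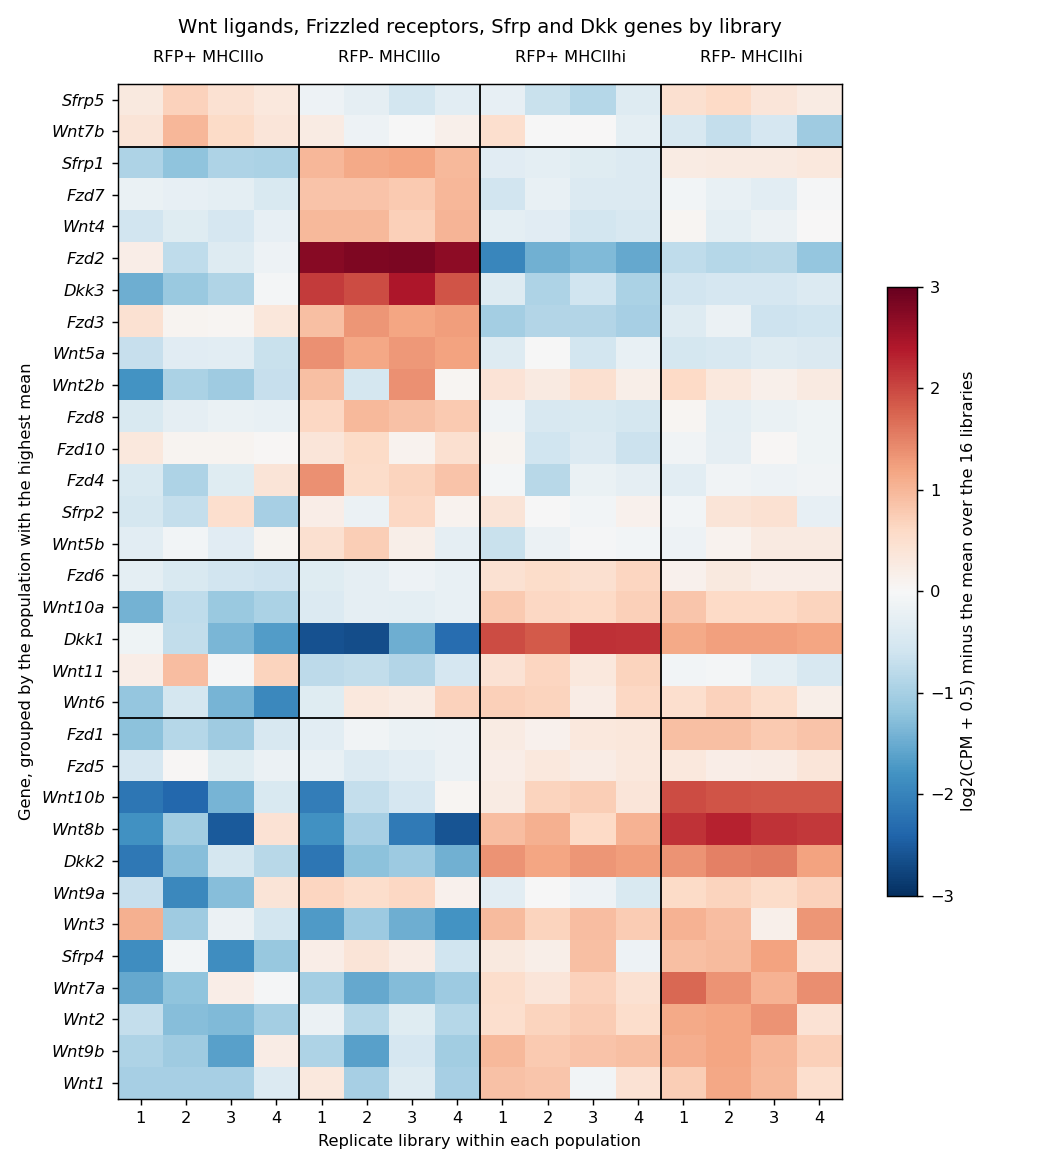
Each row is one of the 32 members and each column one library, 4 per population; colour gives log2(CPM + 0.5) minus that gene's mean over the 16 libraries, with the scale ending at 3 on either side. Rows are grouped by the population with the highest mean, and the blocks show 2, 13, 5 and 12 members for RFP+ MHCIIlo, RFP- MHCIIlo, RFP+ MHCIIhi and RFP- MHCIIhi; for 17 members the 2 highest populations overlap.

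The sequences before the transcription starts of 5 members with different patterns are shown so that they can be set beside the levels: Fzd7, which peaked in RFP- MHCIIlo, Fzd1, Wnt8b and Wnt10b, which peaked in RFP- MHCIIhi, and Wnt11, which was higher with the RFP label in both MHC class II gates. Each is the 250 bases before a RefSeq start on GRCm38.p6, outside every annotated exon, written 5′ to 3′ on the gene's own strand, with the core of the TCF/LEF motif, TCAAAG on either strand, in capitals where it occurs. They lie at chr1:59481897-59482146, plus strand (Fzd7), chr5:4758217-4758466, minus strand (Fzd1), chr7:98834862-98835111, plus strand (Wnt11, the upstream of 2 listed starts), chr19:44493222-44493471, plus strand (Wnt8b) and chr15:98778151-98778400, minus strand (Wnt10b).
Fzd7: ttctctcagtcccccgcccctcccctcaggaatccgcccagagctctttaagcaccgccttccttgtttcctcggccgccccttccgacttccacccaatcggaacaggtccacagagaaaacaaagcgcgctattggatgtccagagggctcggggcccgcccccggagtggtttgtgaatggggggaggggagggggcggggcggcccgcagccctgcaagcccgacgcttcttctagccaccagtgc
Fzd1: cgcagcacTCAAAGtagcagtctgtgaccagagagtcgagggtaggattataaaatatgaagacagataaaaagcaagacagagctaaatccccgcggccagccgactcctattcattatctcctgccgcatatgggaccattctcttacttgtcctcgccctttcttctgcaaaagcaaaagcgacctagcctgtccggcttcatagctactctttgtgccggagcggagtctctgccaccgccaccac
Wnt11: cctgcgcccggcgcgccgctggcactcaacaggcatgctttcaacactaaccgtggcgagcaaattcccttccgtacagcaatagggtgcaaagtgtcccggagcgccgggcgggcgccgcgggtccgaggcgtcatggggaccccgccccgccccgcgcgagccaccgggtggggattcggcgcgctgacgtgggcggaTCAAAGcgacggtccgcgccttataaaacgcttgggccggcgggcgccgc
Wnt8b: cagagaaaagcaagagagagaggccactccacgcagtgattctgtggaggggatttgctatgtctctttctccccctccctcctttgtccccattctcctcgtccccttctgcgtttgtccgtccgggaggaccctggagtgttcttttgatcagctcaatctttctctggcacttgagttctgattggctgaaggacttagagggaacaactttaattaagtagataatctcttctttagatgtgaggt
Wnt10b: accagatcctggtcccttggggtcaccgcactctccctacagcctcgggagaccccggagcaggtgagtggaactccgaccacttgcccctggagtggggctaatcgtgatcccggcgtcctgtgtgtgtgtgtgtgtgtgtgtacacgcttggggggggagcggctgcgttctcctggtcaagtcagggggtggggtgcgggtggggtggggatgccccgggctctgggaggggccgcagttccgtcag

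The RefSeq promoter table holds 25 of the 37 members, with 28 starts, and lacks 12, Fzd2, Dkk3, Sfrp1, Wnt5a and Fzd6 among them. The TCF/LEF core occurred before a start of 4 members, Dkk1, Fzd1, Wnt11 and Wnt5b, and 13.8% of the 32851 mouse promoters of the same length in the table hold it on one strand or the other. Counted from the start, it began at position -242 in Fzd1 and -50 in Wnt11, and Fzd7, Wnt8b and Wnt10b have none in these windows. CpG pairs numbered 4 to 48 per window (median 22, against 6 over all promoters), with 37 in the Wnt11 window and 5 in that of Wnt8b. These are descriptions of letters in a window.

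The leading members are placed as follows on GRCm38 by GENCODE M21, each a protein-coding gene. Fzd2 (ENSMUSG00000050288) lies on chromosome 11 at 102604396 to 102608058 on the plus strand. Fzd7 (ENSMUSG00000041075) lies on chromosome 1 at 59482424 to 59486955 on the plus strand. Fzd1 (ENSMUSG00000044674) lies on chromosome 5 at 4753839 to 4758035 on the minus strand. Wnt4 (ENSMUSG00000036856) lies on chromosome 4 at 137277489 to 137299726 on the plus strand. Wnt11 (ENSMUSG00000015957) lies on chromosome 7 at 98835112 to 98855195 on the plus strand. Wnt8b (ENSMUSG00000036961) lies on chromosome 19 at 44493472 to 44514273 on the plus strand. Wnt10b (ENSMUSG00000022996) lies on chromosome 15 at 98770712 to 98778150 on the minus strand. Sfrp1 (ENSMUSG00000031548) lies on chromosome 8 at 23411502 to 23449632 on the plus strand. Dkk1 (ENSMUSG00000024868) lies on chromosome 19 at 30545863 to 30549665 on the minus strand. Dkk3 (ENSMUSG00000030772) lies on chromosome 7 at 112116017 to 112159057 on the minus strand.

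Among the ligands, Wnt4, Wnt5a and Wnt2b had their highest means in RFP- MHCIIlo, and Wnt4 was the ligand with the most transcript per length in all 4 populations. Wnt4, a ligand of the kidney, the ovary and the thymic epithelium, was measured at 31.0, 36.1, 32.7 and 38.8 CPM in RFP+ MHCIIlo cells and 90.6, 91.9, 76.5 and 94.5 CPM in RFP- MHCIIlo cells. Wnt4 had 37.9, 36.6, 31.6 and 33.1 CPM in RFP+ MHCIIhi cells and 48.6, 37.8, 41.0 and 46.9 CPM in RFP- MHCIIhi cells (replicates 1 to 4). Every RFP- MHCIIlo library lay above the other 12, whose ranges overlapped. It was lower with the label in MHCIIlo (log2 -1.35, SE 0.10, adjusted p = 6.9e-11), slightly lower with it in MHCIIhi, where the libraries overlapped (log2 -0.33, SE 0.10, adjusted p = 0.0076), and higher in RFP- MHCIIlo than in RFP- MHCIIhi (log2 1.02, SE 0.10, adjusted p = 1.9e-09).

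Wnt5a, best known for signalling without beta-catenin, stood at 3.57, 4.75, 4.78 and 3.65 CPM in RFP+ MHCIIlo cells and 16.7, 14.3, 15.8 and 14.7 CPM in RFP- MHCIIlo cells. Wnt5a had 4.52, 6.01, 4.01 and 5.12 CPM in RFP+ MHCIIhi cells and 4.08, 4.19, 4.53 and 4.42 CPM in RFP- MHCIIhi cells. RFP- MHCIIlo was apart from the other 3 populations, which overlapped, and its mean was 3.67-fold the lowest. The log2 difference with the label was -1.88 in MHCIIlo (SE 0.16, adjusted p = 1.1e-09), and RFP- MHCIIlo exceeded RFP- MHCIIhi by 1.84 (adjusted p = 2.7e-10). An antisense gene covers 4.6% of its exons, and the strand setting of the counts is not given in the sources used here.

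Wnt2b, a ligand of foregut and eye development, varied more within RFP- MHCIIlo than between the MHCIIhi populations. Its values were 1.94, 3.90, 3.53 and 4.73 CPM in RFP+ MHCIIlo cells and 15.3, 5.43, 21.6 and 8.34 CPM in RFP- MHCIIlo cells. Wnt2b had 10.8, 9.74, 11.4 and 9.05 CPM in RFP+ MHCIIhi cells and 12.2, 10.1, 8.98 and 9.70 CPM in RFP- MHCIIhi cells. All RFP+ MHCIIlo libraries were below all others (against RFP- MHCIIlo log2 -1.82, SE 0.32, adjusted p = 3.7e-05, and against RFP+ MHCIIhi log2 -1.52, SE 0.31, adjusted p = 0.00025). In the 4 RFP- MHCIIlo libraries the mesothelial marker Upk3b was at 61.3, 26.6, 123 and 40.3 CPM, the same order from library to library as Wnt2b. Upk3b averaged 1.95 CPM in RFP+ MHCIIlo cells, 3.14 CPM in RFP+ MHCIIhi cells and 5.91 CPM in RFP- MHCIIhi cells, while Wnt2b averaged 10.2 and 10.3 CPM in the MHCIIhi populations. The part of mesothelial cells in the Wnt2b values was not tested.

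A larger group of ligands followed the MHC class II gate, with high levels in MHCIIhi cells whether or not they carried the label. Wnt10a, a ligand of skin appendages and teeth, was at 3.67, 6.09, 4.67 and 5.22 CPM in RFP+ MHCIIlo cells and 7.87, 8.74, 8.61 and 9.03 CPM in RFP- MHCIIlo cells. Wnt10a had 18.7, 16.6, 16.4 and 17.9 CPM in RFP+ MHCIIhi cells and 19.4, 16.4, 16.3 and 17.3 CPM in RFP- MHCIIhi cells. Both MHCIIlo ranges lay under both MHCIIhi ranges, which overlapped, and RFP+ MHCIIlo lay under RFP- MHCIIlo. The differences were -1.82 on the log2 scale for RFP+ MHCIIlo against RFP+ MHCIIhi (SE 0.14, adjusted p = 1.7e-10), -1.02 for RFP- MHCIIlo against RFP- MHCIIhi (adjusted p = 2.4e-07) and -0.80 for RFP+ MHCIIlo against RFP- MHCIIlo (adjusted p = 8e-05).

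Wnt10b and Wnt8b were higher in RFP- MHCIIhi than in any other population. Wnt10b, which acts on bone, fat and the mammary gland, was measured at 0.756, 0.609, 1.66 and 3.65 CPM in RFP+ MHCIIlo cells and 0.850, 2.97, 3.5 and 5.42 CPM in RFP- MHCIIlo cells. Wnt10b had 6.24, 8.52, 8.89 and 6.81 CPM in RFP+ MHCIIhi cells and 21.7, 20.6, 20.2 and 20.1 CPM in RFP- MHCIIhi cells. The MHCIIhi ranges were apart from each other and from the MHCIIlo ranges, which overlapped. It was lower with the label in MHCIIhi (log2 -1.43, SE 0.28, adjusted p = 0.00018) and lower in MHCIIlo than in MHCIIhi cells, by log2 -2.09 among labelled cells (adjusted p = 3.8e-05; -2.89 without RFP+ MHCIIlo replicate 4) and -2.66 among unlabelled cells (adjusted p = 8.8e-08). Between the MHCIIlo populations it did not pass (log2 -0.86, SE 0.41, adjusted p = 0.084). It did pass without RFP+ MHCIIlo replicate 4 (log2 -1.65, adjusted p = 0.0025), without RFP- MHCIIlo replicate 1 (log2 -1.14, adjusted p = 0.01) or with no filter (log2 -0.87, adjusted p = 0.0055).

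Wnt8b, a ligand of the developing forebrain, had 0.648, 1.46, 0.208 and 4.98 CPM in RFP+ MHCIIlo cells and 0.638, 1.53, 0.426 and 0.172 CPM in RFP- MHCIIlo cells. Wnt8b had 7.17, 7.99, 5.60 and 7.86 CPM in RFP+ MHCIIhi cells and 17.6, 19.4, 17.5 and 17.1 CPM in RFP- MHCIIhi cells. In RFP+ MHCIIlo, replicate 4 was higher than the other 3 together. Wnt8b would not have met the read minimum on the MHCIIlo libraries alone. RFP- MHCIIhi exceeded the rest without overlap, with log2 -4.67 for RFP- MHCIIlo against it (adjusted p = 5.9e-09; -5.47 without RFP- MHCIIlo replicate 2) and -1.32 for RFP+ MHCIIhi against it (adjusted p = 0.002). The last difference had an adjusted p of 0.084 by DESeq2 (log2 -1.35). Among labelled cells the difference was -1.86 (adjusted p = 0.00066; -3.25 without RFP+ MHCIIlo replicate 4). A higher level in RFP+ MHCIIlo than in RFP- MHCIIlo (log2 1.49, SE 0.60, adjusted p = 0.043) was lost under 14 alternatives, among them leaving out RFP+ MHCIIlo replicate 4 (log2 0.09, adjusted p = 0.91).

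Aire itself averaged 979 CPM in RFP- MHCIIhi cells, where Wnt8b and Wnt10b peaked, and the thymocyte and cortical epithelial markers were also highest there. The 10 thymocyte markers summed to 22.6 to 90.7 CPM in RFP+ MHCIIlo cells, 21.3 to 44.4 CPM in RFP- MHCIIlo cells, 74.2 to 126 CPM in RFP+ MHCIIhi cells and 281 to 632 CPM in RFP- MHCIIhi cells. The 6 cortical markers summed to 234 to 291 CPM in RFP+ MHCIIlo cells, 855 to 1057 CPM in RFP- MHCIIlo cells, 322 to 564 CPM in RFP+ MHCIIhi cells and 1481 to 2885 CPM in RFP- MHCIIhi cells. Their part in the ligand levels was not tested.

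A further 6 ligands had higher means in both MHCIIhi populations than in both MHCIIlo populations, with low counts in all. Means are given for RFP+ MHCIIlo, RFP- MHCIIlo, RFP+ MHCIIhi and RFP- MHCIIhi. Wnt6 averaged 1.07, 3.74, 4.73 and 4.42 CPM, Wnt3 1.89, 0.330, 3.63 and 3.90 CPM, Wnt7a 0.544, 0.117, 1.55 and 3.29 CPM, Wnt2 0.227, 0.554, 1.83 and 2.68 CPM, Wnt9b 0.474, 0.294, 2.36 and 2.62 CPM and Wnt1 0.0622, 0.250, 0.972 and 1.32 CPM. Of these, Wnt1, Wnt2, Wnt3, Wnt7a and Wnt9b were lower in RFP- MHCIIlo than in RFP- MHCIIhi, and all 6 were lower in RFP+ MHCIIlo than in RFP+ MHCIIhi. All but Wnt6 met the read minimum only with the MHCIIhi libraries counted, so their lower levels in MHCIIlo were partly set by that minimum. For Wnt6 the labelled comparison gave log2 -2.20, SE 0.33, adjusted p = 4.6e-06, and the unlabelled one did not pass (adjusted p = 0.46). Wnt2 gave log2 -2.95 among labelled cells (adjusted p = 8.1e-06) and -2.28 among unlabelled cells (adjusted p = 9.5e-06). Wnt1 rested on 3 reads in the 4 RFP+ MHCIIlo libraries together and 87 in the 4 of RFP- MHCIIhi, so no fold is given.

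Wnt3 and Wnt7a were lowest in RFP- MHCIIlo and rose with the label within MHCIIlo, by log2 2.45 for Wnt3 (adjusted p = 0.00077; 1.68 without RFP+ MHCIIlo replicate 1) and 2.26 for Wnt7a (adjusted p = 0.022). Wnt3 had 73 reads in the 4 RFP+ MHCIIlo libraries, 40 of them in replicate 1, and 15 in the 4 of RFP- MHCIIlo. Wnt7a had 23 reads in the 4 RFP+ MHCIIlo libraries and 5 in the 4 of RFP- MHCIIlo. The Wnt7a call was lost when RFP+ MHCIIlo replicate 3 or 4, or else RFP- MHCIIlo replicate 2 or 3 was left out alone (log2 1.69 to 2.15, adjusted p = 0.051 to 0.11) or with limma-voom (log2 1.4, adjusted p = 0.22). Among labelled cells, Wnt3 fell by 0.94 on the log2 scale in MHCIIlo (adjusted p = 0.042; -1.72 without RFP+ MHCIIlo replicate 1). That call was lost when RFP+ MHCIIlo replicate 2, 3 or 4, or else RFP+ MHCIIhi replicate 1, 3 or 4, or else RFP- MHCIIhi replicate 2 was left out alone (log2 -0.97 to -0.70, adjusted p = 0.052 to 0.13), and with only the 2 populations in the fit (log2 -0.95, adjusted p = 0.068). Wnt7a gave -1.41 (adjusted p = 0.02; -2.17 with limma-voom), lost when RFP+ MHCIIlo replicate 1 or 2 was left out alone (log2 -1.16 to -1.03, adjusted p = 0.051 to 0.055). In MHCIIhi cells Wnt7a was lower with the label (log2 -1.09, SE 0.39, adjusted p = 0.024), lost when RFP+ MHCIIhi replicate 1, 2 or 4, or else RFP- MHCIIhi replicate 1 was left out alone (log2 -1.1 to -0.94, adjusted p = 0.051 to 0.11). Wnt9b gave -2.16 among labelled cells (adjusted p = 0.0012; -3.60 without RFP+ MHCIIlo replicate 4 and -4.28 without replicates 1 and 4 together) and -3.13 among unlabelled cells (adjusted p = 2.9e-05; -3.77 without RFP- MHCIIlo replicate 3).

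**Figure D2:**
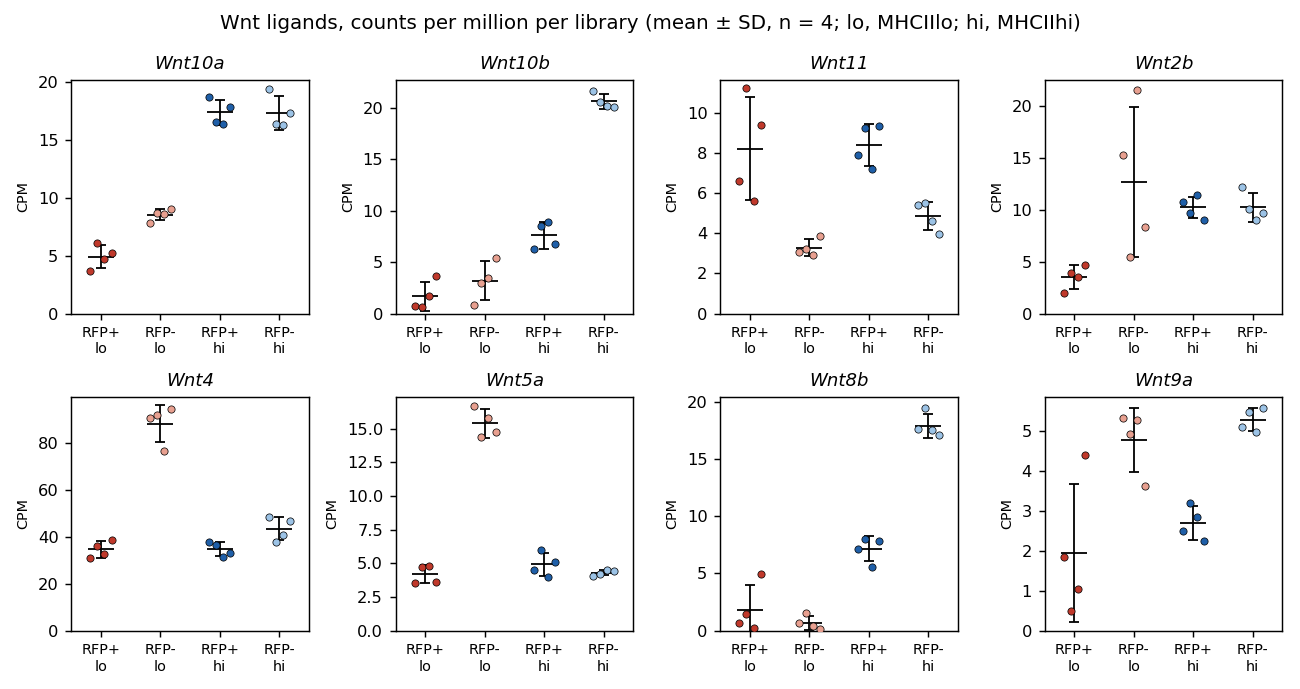
Levels in CPM of 8 ligands in each of the 16 libraries (points) with the population mean and SD (lines, n = 4 each); the axes start at 0. Wnt4, Wnt5a and Wnt2b have their highest mean in RFP- MHCIIlo, where Wnt2b overlaps the next population. Wnt10a, Wnt10b and Wnt8b have it in MHCIIhi cells, Wnt11 is high in both RFP+ populations and Wnt9a low in both.

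Wnt11 and Wnt7b were higher with the RFP label at both levels of MHC class II. Wnt11, which guides cell movement and kidney branching, was at 6.59, 11.2, 5.61 and 9.37 CPM in RFP+ MHCIIlo cells against 3.08, 3.22, 2.90 and 3.87 CPM in RFP- MHCIIlo cells, and at 7.87, 9.22, 7.19 and 9.33 CPM in RFP+ MHCIIhi cells against 5.38, 5.49, 4.6 and 3.96 CPM in RFP- MHCIIhi cells. Neither pair of ranges overlapped (log2 1.32, SE 0.21, adjusted p = 1.5e-05 in MHCIIlo, log2 0.79, SE 0.19, adjusted p = 0.0016 in MHCIIhi), and the RFP effects of the gates did not differ beyond the threshold (adjusted p = 0.16). RFP- MHCIIlo was below RFP- MHCIIhi (log2 -0.57, SE 0.21, adjusted p = 0.021), a call lost when RFP- MHCIIlo replicate 3, or else RFP- MHCIIhi replicate 1 or 2 was left out alone (log2 -0.51, adjusted p = 0.056 to 0.062). An overlapping pseudogene on the other strand covers 8.8% of its exons.

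Wnt7b, a ligand of lung and kidney growth, averaged 9.21 ± 2.14 CPM in RFP+ MHCIIlo cells, 6.18 ± 0.817 CPM in RFP- MHCIIlo cells, 6.26 ± 1.64 CPM in RFP+ MHCIIhi cells and 3.5 ± 0.715 CPM in RFP- MHCIIhi cells (SD, n = 4 here and below). It rose with the label in MHCIIhi (log2 0.83, SE 0.21, adjusted p = 0.0022) and by log2 0.57 in MHCIIlo (adjusted p = 0.024), and the MHCIIlo call was lost when RFP+ MHCIIlo replicate 2, or else RFP- MHCIIlo replicate 2 or 3 was left out alone (log2 0.37 to 0.54, adjusted p = 0.056 to 0.15). RFP- MHCIIlo exceeded RFP- MHCIIhi (log2 0.81, SE 0.21, adjusted p = 0.0018). Among labelled cells MHCIIlo exceeded MHCIIhi by 0.55 (adjusted p = 0.023), lost when RFP+ MHCIIlo replicate 2, or else RFP+ MHCIIhi replicate 2, 3 or 4 was left out alone (log2 0.36 to 0.53, adjusted p = 0.056 to 0.14).

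Markers of tuft cells and cornified cells were highest in RFP+ MHCIIlo, the population with the highest means of Wnt7b and Sfrp5. Tuft markers summed to 2114 to 3103 CPM in RFP+ MHCIIlo cells, 977 to 1617 CPM in RFP- MHCIIlo cells, 347 to 458 CPM in RFP+ MHCIIhi cells and 79.3 to 96.8 CPM in RFP- MHCIIhi cells. Cornified markers summed to 1422 to 2188 CPM in RFP+ MHCIIlo cells, 156 to 237 CPM in RFP- MHCIIlo cells, 503 to 698 CPM in RFP+ MHCIIhi cells and 81.5 to 91.2 CPM in RFP- MHCIIhi cells. Both sums were lowest in RFP- MHCIIhi, and so was the mean of Wnt7b (3.5 CPM). Sfrp5 had another order. Its RFP- MHCIIhi mean, 9.23 CPM, was close to the 9.33 CPM of RFP+ MHCIIlo, and these libraries overlapped. Its lowest mean, 4.51 CPM, was that of RFP+ MHCIIhi, where both sums exceeded those of RFP- MHCIIhi. The part of tuft and cornified cells in the Wnt7b and Sfrp5 levels was not tested.

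Wnt9a, a ligand of joint formation, went the other way and was lower with the label in both gates. It was at 1.84, 0.488, 1.04 and 4.39 CPM in RFP+ MHCIIlo cells and 5.31, 4.92, 5.29 and 3.61 CPM in RFP- MHCIIlo cells (log2 -1.21, SE 0.35, adjusted p = 0.0053; -2.06 without RFP+ MHCIIlo replicate 4), and at 2.49, 3.21, 2.85 and 2.25 CPM in RFP+ MHCIIhi cells and 5.10, 5.49, 4.99 and 5.57 CPM in RFP- MHCIIhi cells (log2 -0.96, SE 0.31, adjusted p = 0.013). The MHCIIhi ranges were apart, and in MHCIIlo replicate 4 of RFP+ lay within the RFP- range. Wnt5b, a relative of Wnt5a, averaged 0.780, 1.29, 0.717 and 1.06 CPM in RFP+ MHCIIlo, RFP- MHCIIlo, RFP+ MHCIIhi and RFP- MHCIIhi and passed in none of the 5 comparisons.

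Of the Wnt genes, 4 pairs are neighbours within 250 kb on GRCm38, and 3 pairs have both members above the read minimum. Wnt10b and Wnt1 lie 11.7 kb apart on chromosome 15 in opposite directions. Both had their highest mean in RFP- MHCIIhi, where the Wnt1 libraries overlapped those of RFP+ MHCIIhi (adjusted p = 0.51). Wnt6 and Wnt10a lie 6.2 kb apart on chromosome 1 on the same strand. Both had their highest mean in RFP+ MHCIIhi, with libraries that overlapped those of RFP- MHCIIhi (adjusted p = 0.79 and 0.99). Wnt9b and Wnt3 lie 24.3 kb apart on chromosome 11. Both had their highest mean in RFP- MHCIIhi and overlapped RFP+ MHCIIhi (adjusted p = 0.78 and 0.8). In the pair of Wnt3a and Wnt9a, 16.2 kb apart on chromosome 11, Wnt3a was below the minimum.

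Among the receptors, Fzd2 changed most, and 6 of the 9 reported Frizzled genes had their highest mean in RFP- MHCIIlo, where Fzd10 overlapped another population. The share of all genes with their highest mean there was not counted. Fzd2, a receptor through which Wnt5a is known to act, was at 7.35, 3.53, 4.67 and 5.64 CPM in RFP+ MHCIIlo cells and 44.3, 46.5, 47.4 and 42.8 CPM in RFP- MHCIIlo cells. Fzd2 had 1.25, 1.98, 2.19 and 1.82 CPM in RFP+ MHCIIhi cells and 3.48, 3.23, 3.30 and 2.53 CPM in RFP- MHCIIhi cells. The ranges of all 4 populations were apart, and the RFP- MHCIIlo mean was 25.0-fold that of RFP+ MHCIIhi. All 4 comparisons of pairs passed, with log2 -3.08 for the label in MHCIIlo (SE 0.16, adjusted p = 2.5e-13), -0.76 for the label in MHCIIhi (adjusted p = 0.0037), 1.53 for MHCIIlo against MHCIIhi with the label (adjusted p = 1e-06) and 3.85 without it (adjusted p = 2.8e-15).

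Fzd7, a receptor of epithelial stem cells, Fzd3, known for axon guidance and polarity, and Fzd8 shared that peak at smaller folds. Fzd7 was at 42.0, 41.1, 39.9 and 35.4 CPM in RFP+ MHCIIlo cells and 88.5, 87.8, 84.7 and 97.2 CPM in RFP- MHCIIlo cells. Fzd7 had 32.6, 41.3, 36.3 and 36.2 CPM in RFP+ MHCIIhi cells and 46.1, 41.6, 38.8 and 47.3 CPM in RFP- MHCIIhi cells, with RFP- MHCIIlo apart and the rest overlapping (log2 -1.18, SE 0.09, adjusted p = 1e-10 for the label in MHCIIlo, log2 1.04, SE 0.09, adjusted p = 2.2e-10 between unlabelled cells). A small fall with the label in MHCIIhi (log2 -0.25, adjusted p = 0.024) was lost when RFP+ MHCIIhi replicate 1, 3 or 4, or else RFP- MHCIIhi replicate 1 or 4 was left out alone (log2 -0.24 to -0.20, adjusted p = 0.053 to 0.097) or with no filter (log2 -0.22, adjusted p = 0.11).

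Fzd3 stood at 10.6, 8.04, 8.0 and 9.87 CPM in RFP+ MHCIIlo cells and 14.8, 19.8, 18 and 18.8 CPM in RFP- MHCIIlo cells. Fzd3 had 3.51, 3.91, 3.90 and 3.58 CPM in RFP+ MHCIIhi cells and 5.75, 6.65, 4.76 and 4.88 CPM in RFP- MHCIIhi cells, 4 ranges that did not overlap. It fell with the label in MHCIIlo (log2 -0.96, SE 0.15, adjusted p = 7.4e-06) and in MHCIIhi (log2 -0.56, SE 0.16, adjusted p = 0.006), and was higher in MHCIIlo than in MHCIIhi cells both with the label (log2 1.29, adjusted p = 3.9e-07) and without it (1.69, adjusted p = 5.8e-10). Fzd8 had 4.65, 5.36, 5.61 and 5.56 CPM in RFP+ MHCIIlo cells and 10.3, 13.3, 12.5 and 11.6 CPM in RFP- MHCIIlo cells. Fzd8 had 6.00, 4.55, 4.61 and 4.42 CPM in RFP+ MHCIIhi cells and 6.87, 5.29, 5.60 and 5.97 CPM in RFP- MHCIIhi cells, with RFP- MHCIIlo apart from 3 overlapping populations (log2 -1.17, SE 0.16, adjusted p = 1.3e-06 for the label in MHCIIlo).

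Fzd4, which also binds the non-Wnt ligand Norrin in the retina, and Fzd10 had lower levels. Fzd4 was at 1.73, 1.1, 1.87 and 3.48 CPM in RFP+ MHCIIlo cells and 7.33, 3.99, 4.35 and 4.99 CPM in RFP- MHCIIlo cells. Fzd4 had 2.42, 1.22, 2.14 and 2.03 CPM in RFP+ MHCIIhi cells and 1.95, 2.32, 2.23 and 2.35 CPM in RFP- MHCIIhi cells, again with RFP- MHCIIlo above the others (log2 -1.28, SE 0.30, adjusted p = 0.00088). Fzd10 averaged 8.13 ± 0.787 CPM in RFP+ MHCIIlo cells, 9.82 ± 1.44 CPM in RFP- MHCIIlo cells, 5.60 ± 1.51 CPM in RFP+ MHCIIhi cells and 6.79 ± 0.597 CPM in RFP- MHCIIhi cells. MHCIIlo exceeded MHCIIhi by log2 0.53 without the label (adjusted p = 0.0075) and by 0.55 with it (adjusted p = 0.011), the second lost without RFP+ MHCIIhi replicate 2 (log2 0.44, adjusted p = 0.064), and the label made no difference that passed in MHCIIlo (log2 -0.27, SE 0.17, adjusted p = 0.19).

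Fzd1, Fzd6 and Fzd5 were instead higher in MHCIIhi cells. Fzd1 was at 11.8, 15.6, 13.3 and 20.1 CPM in RFP+ MHCIIlo cells and 22.7, 26.4, 24.8 and 25.0 CPM in RFP- MHCIIlo cells. Fzd1 had 33.9, 31.1, 35.7 and 36.3 CPM in RFP+ MHCIIhi cells and 53.6, 53.7, 49.5 and 52.1 CPM in RFP- MHCIIhi cells, so that both the label and the low gate went with less of it and no 2 ranges overlapped. It fell with the label in MHCIIlo (log2 -0.69, SE 0.12, adjusted p = 3.8e-05) and MHCIIhi (log2 -0.61, SE 0.11, adjusted p = 4.5e-05), and it was lower in MHCIIlo with the label (log2 -1.16, adjusted p = 1.3e-08) and without it (-1.08, adjusted p = 7.6e-09).

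Fzd6, a polarity receptor of skin and hair, was at 54.5, 48.3, 45.0 and 43.3 CPM in RFP+ MHCIIlo cells and 52.3, 55.2, 60.1 and 56.9 CPM in RFP- MHCIIlo cells. Fzd6 had 92.4, 97.8, 92.9 and 105 CPM in RFP+ MHCIIhi cells and 73.3, 82.6, 77.4 and 77.0 CPM in RFP- MHCIIhi cells. The label went with more of it in MHCIIhi, without overlap (log2 0.32, SE 0.08, adjusted p = 0.0017), and with slightly less in MHCIIlo (log2 -0.24, SE 0.08, adjusted p = 0.02), a call lost when RFP+ MHCIIlo replicate 4, or else RFP- MHCIIlo replicate 3 was left out alone (log2 -0.20 to -0.19, adjusted p = 0.067 to 0.069) or with no filter on low counts (log2 -0.24, adjusted p = 0.057). MHCIIlo was below MHCIIhi both with the label (log2 -1.02, adjusted p = 3e-10) and without it (log2 -0.47, adjusted p = 2e-05). Fzd5, a receptor of gut and eye, averaged 21 ± 3.5 CPM in RFP+ MHCIIlo cells, 20.3 ± 1.55 CPM in RFP- MHCIIlo cells, 29.9 ± 1.30 CPM in RFP+ MHCIIhi cells and 30.2 ± 1.43 CPM in RFP- MHCIIhi cells . Of its 4 comparisons of pairs those by gate passed, with log2 -0.52 for MHCIIlo against MHCIIhi with the label (adjusted p = 0.00017) and -0.57 without it (adjusted p = 3e-05). Neither comparison of the label passed (adjusted p = 0.76 in MHCIIlo and 0.94 in MHCIIhi). A transcript model on the other strand, not experimentally settled in the annotation, covers 17.8% of its exons.

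**Figure D3:**
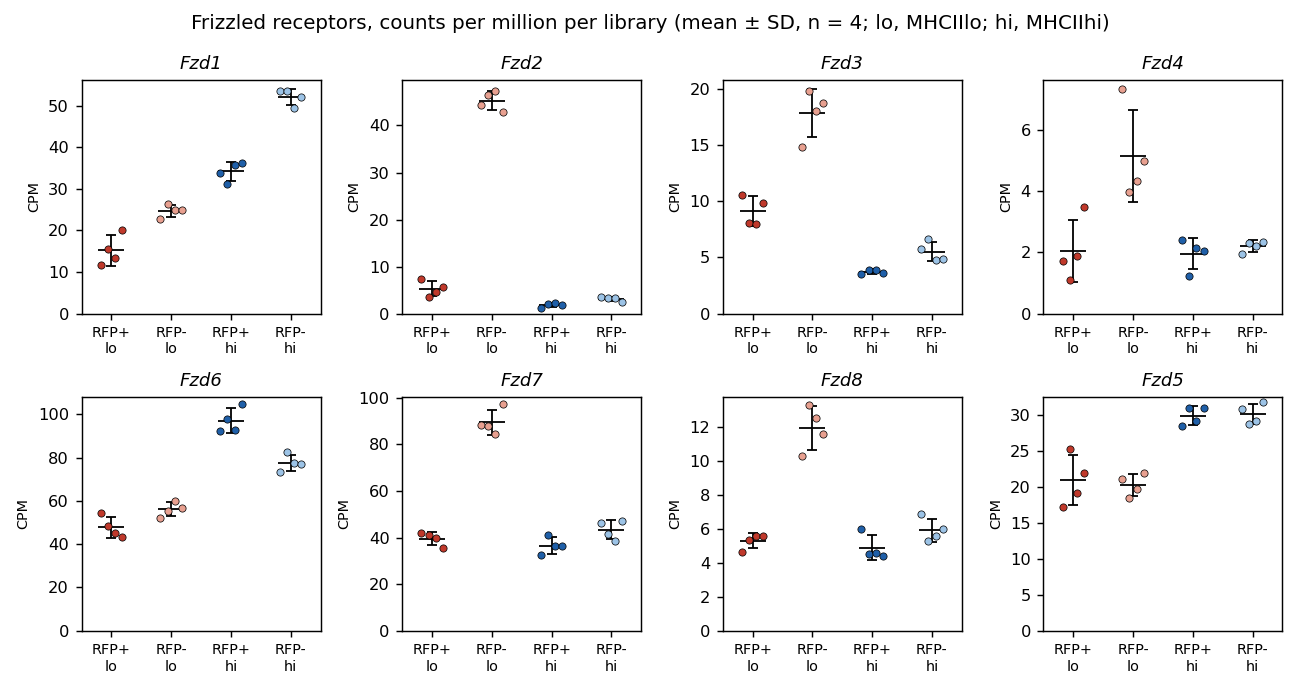
Levels in CPM of 8 Frizzled receptors in each of the 16 libraries (points), with population mean and SD (lines, n = 4 each) and axes from 0. Fzd2, Fzd3, Fzd4, Fzd7 and Fzd8 are highest in RFP- MHCIIlo, while Fzd1, Fzd5 and Fzd6 are highest in MHCIIhi cells.

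Sfrp1, the Wnt-binding inhibitor with the highest level per length of all members, was at 95.0, 77.6, 94.6 and 93.6 CPM in RFP+ MHCIIlo cells and 363, 401, 408 and 354 CPM in RFP- MHCIIlo cells. Sfrp1 had 142, 148, 139 and 135 CPM in RFP+ MHCIIhi cells and 216, 219.6, 218 and 226 CPM in RFP- MHCIIhi cells. No ranges overlapped, and at each level of MHC class II the label went with less Sfrp1. In MHCIIlo the RFP- mean was 4.23-fold higher (log2 -2.08, SE 0.08, adjusted p = 1.6e-15). The label gave log2 -0.64 in MHCIIhi (SE 0.08, adjusted p = 2.6e-07), and MHCIIlo against MHCIIhi gave -0.65 with the label (adjusted p = 2.1e-07) and 0.80 without it (adjusted p = 2.5e-09).

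Sfrp5 had the opposite order within MHCIIlo, with 8.32, 11.1, 9.45 and 8.46 CPM in RFP+ MHCIIlo cells and 5.95, 5.51, 4.44 and 5.33 CPM in RFP- MHCIIlo cells. Sfrp5 had 5.53, 4.02, 3.51 and 4.98 CPM in RFP+ MHCIIhi cells and 9.60, 10.5, 8.83 and 8.04 CPM in RFP- MHCIIhi cells. It rose with the label in MHCIIlo (log2 0.81, SE 0.17, adjusted p = 0.0004) and fell with it in MHCIIhi (log2 -1.04, SE 0.17, adjusted p = 1.5e-05), without overlap in either. The other members of the family were low. Sfrp4 averaged 0.573, 1.85, 2.32 and 3.61 CPM and Sfrp2 0.964, 1.62, 1.46 and 1.53 CPM in RFP+ MHCIIlo, RFP- MHCIIlo, RFP+ MHCIIhi and RFP- MHCIIhi. Sfrp4 was lower with the label in MHCIIlo (log2 -1.75, SE 0.53, adjusted p = 0.0083; -2.84 without RFP+ MHCIIlo replicate 2), lower in labelled MHCIIlo than in labelled MHCIIhi cells (log2 -2.09, adjusted p = 0.0012; -3.17 without RFP+ MHCIIlo replicate 2) and lower in the unlabelled MHCIIlo cells than in unlabelled MHCIIhi cells (-0.96, adjusted p = 0.034), the last lost when RFP- MHCIIlo replicate 4, or else RFP- MHCIIhi replicate 1, 2 or 3 was left out alone (log2 -0.95 to -0.73, adjusted p = 0.064 to 0.11). Sfrp2 passed in no comparison, and an antisense gene covers 16.1% of its exons.

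Dkk1 and Dkk2 were genes of MHCIIhi cells and Dkk3 of RFP- MHCIIlo. Dkk1, which blocks Lrp5 and Lrp6, was at 2.92, 1.71, 0.935 and 0.663 CPM in RFP+ MHCIIlo cells and 0.106, 0.0848, 0.853 and 0.258 CPM in RFP- MHCIIlo cells. Dkk1 had 14, 12.7, 16.4 and 16.2 CPM in RFP+ MHCIIhi cells and 7.61, 8.20, 8.21 and 7.98 CPM in RFP- MHCIIhi cells. The RFP+ MHCIIhi libraries were above all others and the MHCIIlo ranges overlapped. In reads, that is 58 in the 4 RFP+ MHCIIlo libraries, 15 in RFP- MHCIIlo, 926 in RFP+ MHCIIhi and 537 in RFP- MHCIIhi. Dkk1 would not have met the read minimum on the MHCIIlo libraries alone. It rose with the label in MHCIIhi (log2 0.89, SE 0.23, adjusted p = 0.0028) and in MHCIIlo (log2 2.13, SE 0.51, adjusted p = 0.0012; 3.22 without RFP- MHCIIlo replicate 3). MHCIIlo against MHCIIhi gave -3.29 with the label (adjusted p = 2.4e-09) and -4.53 without it (adjusted p = 4e-10; -5.63 without RFP- MHCIIlo replicate 3).

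Dkk2, which can inhibit or activate the coreceptors depending on context, was at 0.432, 1.22, 2.39 and 1.82 CPM in RFP+ MHCIIlo cells and 0.425, 1.27, 1.45 and 1.03 CPM in RFP- MHCIIlo cells. Dkk2 had 10.1, 8.92, 9.82 and 9.33 CPM in RFP+ MHCIIhi cells and 10.0, 11.4, 11.8 and 9.07 CPM in RFP- MHCIIhi cells. The MHCIIlo and MHCIIhi ranges were far apart and the label made no difference that passed in MHCIIlo (log2 0.48, SE 0.36, adjusted p = 0.28) or MHCIIhi (log2 -0.14, SE 0.21, adjusted p = 0.61), although the first did pass without RFP+ MHCIIlo replicate 1 (log2 0.77, adjusted p = 0.044). By gate the log2 differences were -2.67 with the label (adjusted p = 1.7e-08) and -3.29 without it (adjusted p = 3.5e-10).

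Dkk3, a divergent family member that does not act as a classical Lrp6 blocker, was at 1.51, 2.07, 2.49 and 4.81 CPM in RFP+ MHCIIlo cells and 23.4, 21.3, 29.7 and 20.2 CPM in RFP- MHCIIlo cells. Dkk3 had 3.74, 2.45, 3.18 and 2.39 CPM in RFP+ MHCIIhi cells and 3.25, 3.42, 3.45 and 3.68 CPM in RFP- MHCIIhi cells. RFP- MHCIIlo stood apart from 3 overlapping populations (log2 -3.07, SE 0.23, adjusted p = 1.4e-10 for the label in MHCIIlo, log2 2.78, SE 0.22, adjusted p = 7.8e-11 between unlabelled cells).

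**Figure D4:**
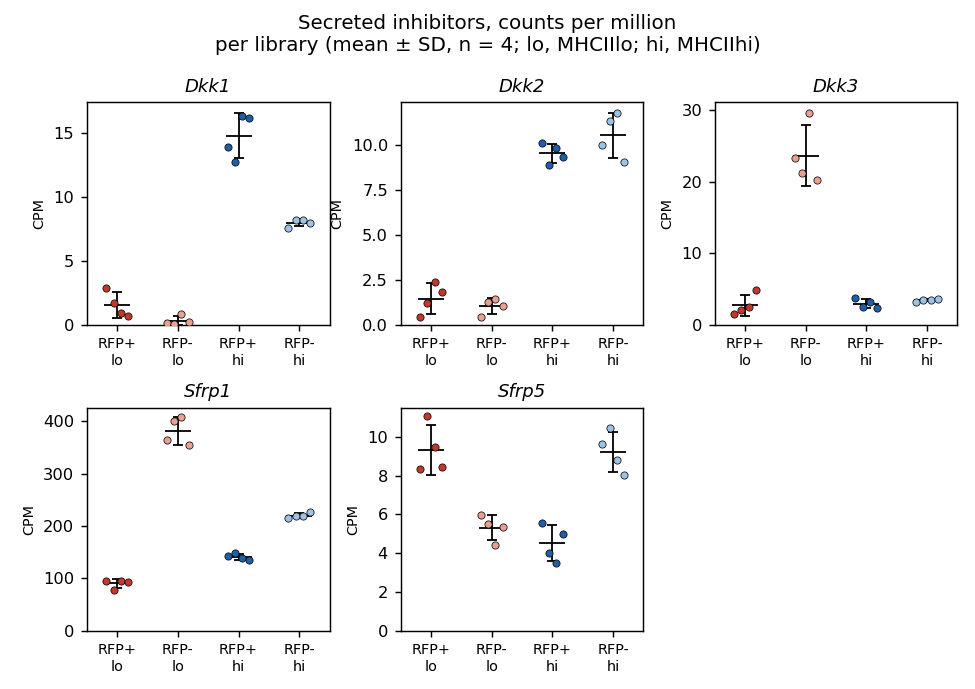
Levels in CPM of Dkk1, Dkk2, Dkk3, Sfrp1 and Sfrp5 in each of the 16 libraries (points), with population mean and SD (lines, n = 4 each) and axes from 0. Dkk1 and Dkk2 are high in MHCIIhi cells, Dkk3 and Sfrp1 are highest in RFP- MHCIIlo, and Sfrp5 is highest in RFP+ MHCIIlo and RFP- MHCIIhi.

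RFP- MHCIIlo, where Fzd2, Dkk3, Wnt5a and Sfrp1 peaked, also held the most transcript of mesenchymal and basal epithelial markers. The 10 mesenchymal markers summed to 147 to 270.2 CPM in RFP+ MHCIIlo cells, 1206 to 1905 CPM in RFP- MHCIIlo cells, 168 to 189 CPM in RFP+ MHCIIhi cells and 204 to 205 CPM in RFP- MHCIIhi cells. Dcn, a matrix proteoglycan of fibroblasts, averaged 32.4, 376, 47.3 and 50.5 CPM and Pdgfra, a fibroblast receptor, 3.35, 5.69, 1.46 and 2.14 CPM in RFP+ MHCIIlo, RFP- MHCIIlo, RFP+ MHCIIhi and RFP- MHCIIhi. Of the list, 8 of 10 were lower with the label in MHCIIlo and 0 higher, beside 22.7% of all genes lower and 28.9% higher. Lum and Pdgfrb were not called. In RFP- MHCIIlo against RFP- MHCIIhi, 8 were higher, beside 33.5% of all genes. Pdgfrb went the other way and was lower there, and Col1a1 was not called. The 5 mesothelial markers summed to 322 to 399 CPM in RFP+ MHCIIlo cells, 399.5 to 588 CPM in RFP- MHCIIlo cells, 165 to 171 CPM in RFP+ MHCIIhi cells and 77.1 to 88.8 CPM in RFP- MHCIIhi cells. Of these 5, Upk3b, Wt1, Upk1b and Lrrn4 were lower with the label in MHCIIlo and Msln was not called (median log2 -2.98). The basal marker Trp63 averaged 117, 381, 119 and 107 CPM in the same order of populations. The part of these cells in the levels of the Wnt genes was not tested.

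Per length of exon, the family sums compare the supply of ligand, receptor and inhibitor transcript. Values here are CPM per kb of merged exons over all 37 members, so that genes can be compared with each other. Ligands summed to 19.1 ± 2.88 in RFP+ MHCIIlo, 37.3 ± 1.07 in RFP- MHCIIlo, 33.0 ± 1.54 in RFP+ MHCIIhi and 42.6 ± 2.16 in RFP- MHCIIhi. Receptors summed to 31.2 ± 1.27, 59.8 ± 1.49, 44.4 ± 1.39 and 47.3 ± 1.21 in the same order of populations. Sfrp genes summed to 26.1 ± 1.39, 91.3 ± 6.08, 35.9 ± 1.21 and 56.7 ± 0.722 and Dkk genes to 1.93 ± 0.345, 7.56 ± 1.41, 9.81 ± 0.734 and 7.34 ± 0.369. All 4 sums were lowest in RFP+ MHCIIlo.

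The makeup of the sums differed between populations. Wnt4 made up 43.6% of ligand transcript per length in RFP+ MHCIIlo, 56.4% in RFP- MHCIIlo, 25.1% in RFP+ MHCIIhi and 24.4% in RFP- MHCIIhi (means of 4 libraries). Fzd6 held 31.7%, 19.5%, 45.3% and 34.1% of receptor transcript, and Fzd2 4.62%, 20.7%, 1.11% and 1.81%. Fzd7 led the receptors in RFP- MHCIIlo with 33.0%, and Fzd6 led them in the other 3 populations. Sfrp1 was 78.9% of the Sfrp sum in RFP+ MHCIIlo and 95.6% in RFP- MHCIIlo. The Dkk sum was 93.2% Dkk3 in RFP- MHCIIlo, and Dkk1 made up 62.0% of it in RFP+ MHCIIhi and 44.9% in RFP- MHCIIhi.

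**Figure D5:**
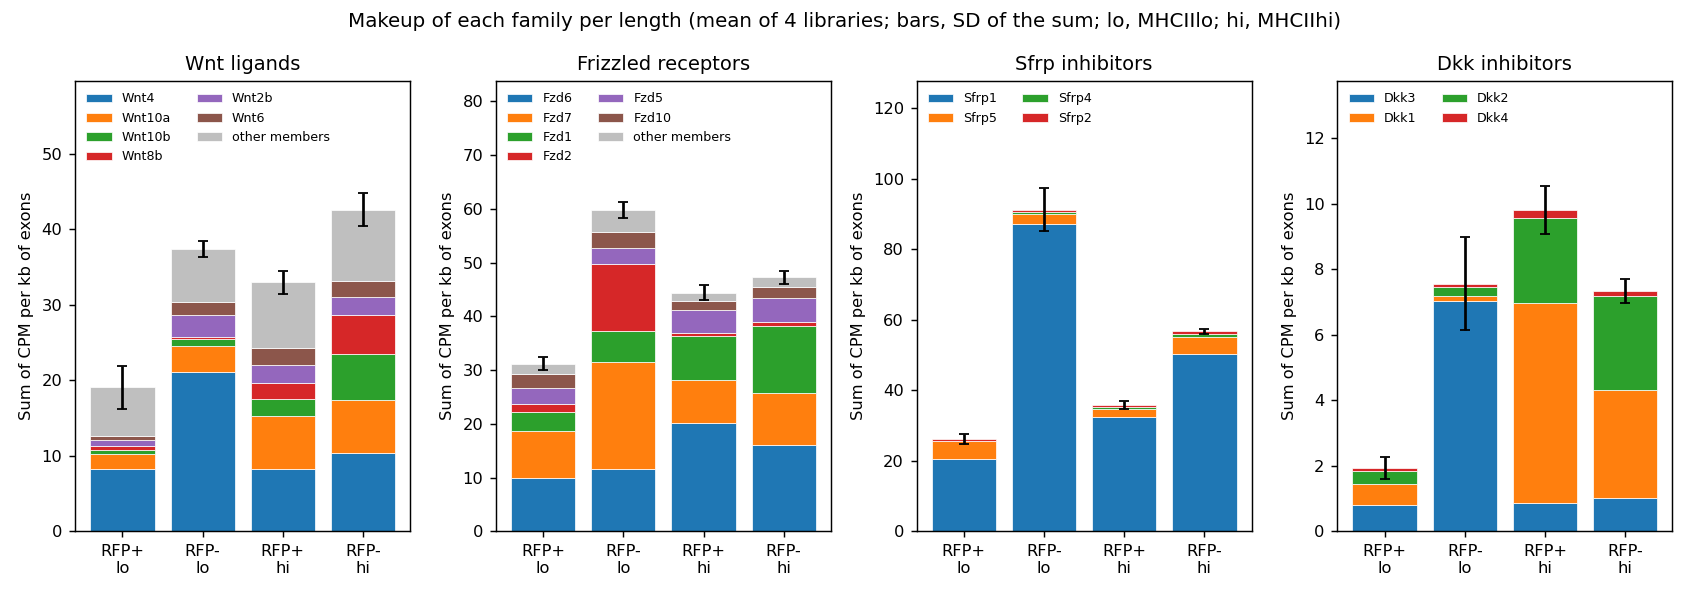
Stacked bars give the mean CPM per kb of exons in the 4 populations, for ligands, Frizzled receptors, Sfrp and Dkk genes in separate panels from 0. Sfrp and Dkk genes are drawn singly. Of the ligands and receptors only the highest are, and the rest are pooled as other members. Error bars are the SD of the sum over 4 libraries. The ligand and receptor sums are lowest in RFP+ MHCIIlo, Sfrp1 fills most of the Sfrp bar everywhere, and the Dkk bar is mostly Dkk3 in RFP- MHCIIlo and Dkk1 with Dkk2 in MHCIIhi cells.

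The RFP effect differed between the MHC class II gates for 16 of the 32 members, 4 higher and 12 lower in MHCIIlo than in MHCIIhi (50% of members, against 34.1% of all genes, 17.5% higher and 16.6% lower). Among the 12, Dkk3 (log2 -2.83, SE 0.34, adjusted p = 7.3e-07), Fzd2 (log2 -2.32, SE 0.27, adjusted p = 4.2e-07) and Wnt5a (log2 -2.08, SE 0.23, adjusted p = 2.2e-07) had the largest differences, and Wnt6, Wnt2b, Sfrp1, Fzd4, Wnt4, Fzd7, Fzd8, Wnt10a and Fzd6 followed at -1.98 to -0.56. The Fzd4 call (log2 -1.09, adjusted p = 0.047) was lost when RFP+ MHCIIlo replicate 1, 2 or 3, or else RFP- MHCIIlo replicate 1 or 4, or else RFP+ MHCIIhi replicate 1, 3 or 4, or else RFP- MHCIIhi replicate 1, 2, 3 or 4 was left out alone (log2 -1.16 to -0.89, adjusted p = 0.054 to 0.11), and with limma-voom (log2 -1.06, adjusted p = 0.055). Sfrp5 (log2 1.86, SE 0.24, adjusted p = 2.1e-06), Wnt7a, Wnt8b and Fzd6 were called in opposite directions in the 2 gates. Of these, the MHCIIlo calls of Wnt7a, Wnt8b and Fzd6 were lost under some alternatives. Wnt7a (log2 3.35, adjusted p = 0.005; log2 2.5, adjusted p = 0.054 with limma-voom), Wnt8b (2.81, adjusted p = 0.0026; 3.59 without RFP- MHCIIlo replicate 2) and Wnt3 (2.57, adjusted p = 0.0041; 1.80 without RFP+ MHCIIlo replicate 1) had a higher effect in MHCIIlo, as Sfrp5 did. The Wnt8b call was lost without RFP+ MHCIIlo replicate 4 (log2 1.42, adjusted p = 0.083) and without replicates 1 and 4 of that population together (log2 1.5, adjusted p = 0.11).

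For the other genes of the pathway, counts are read beside the share of all genes called: 51.6% for the label in MHCIIlo, 55.6% between labelled gates, 45.0% for the label in MHCIIhi and 69.1% between unlabelled gates. Of 7 coreceptors and alternative Wnt receptors, 0 rose and 5 fell with the label in MHCIIlo (median log2 -1.05, against 0.07 over all genes), and 6 were higher and 0 lower in unlabelled MHCIIlo than in unlabelled MHCIIhi cells (median 1.18). In RFP+ MHCIIlo against RFP+ MHCIIhi 3 were higher and 1 lower. Lrp5 averaged 38.0 ± 5.59 CPM in RFP+ MHCIIlo cells, 40.9 ± 2.52 CPM in RFP- MHCIIlo cells, 14 ± 1.52 CPM in RFP+ MHCIIhi cells and 18 ± 1.56 CPM in RFP- MHCIIhi cells. It was thus higher in MHCIIlo with the label (log2 1.44, SE 0.11, adjusted p = 1.6e-10) and without it (log2 1.18, SE 0.11, adjusted p = 9.5e-10), and its label comparison in MHCIIlo did not pass (adjusted p = 0.41). Lrp6 averaged 172, 169, 145 and 127 CPM in RFP+ MHCIIlo, RFP- MHCIIlo, RFP+ MHCIIhi and RFP- MHCIIhi. Ror2, the Wnt5a receptor, had 0.439, 3.38, 0.610 and 0.892 CPM and fell with the label in MHCIIlo (log2 -2.93, SE 0.42, adjusted p = 2.9e-06). Gpc4, a heparan sulphate carrier that binds Wnts, averaged 13.9 ± 2.52 CPM in RFP+ MHCIIlo cells, 41.9 ± 2.88 CPM in RFP- MHCIIlo cells, 37.8 ± 1.81 CPM in RFP+ MHCIIhi cells and 16.4 ± 1.71 CPM in RFP- MHCIIhi cells, lower with the label in MHCIIlo (log2 -1.59, SE 0.11, adjusted p = 2.9e-11) and higher with it in MHCIIhi (log2 1.21, SE 0.10, adjusted p = 1.5e-09).

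Of 6 genes of Wnt secretion, Wls and Porcn moved in opposite directions within MHCIIlo. Wls, the carrier that brings Wnts to the cell surface, was at 26.0, 21, 24.2 and 28.4 CPM in RFP+ MHCIIlo cells and 57.1, 60.3, 69.5 and 66.6 CPM in RFP- MHCIIlo cells (log2 -1.34, SE 0.10, adjusted p = 4.2e-11), without overlap, and averaged 36.5 CPM in RFP+ MHCIIhi cells and 32.3 CPM in RFP- MHCIIhi cells. Porcn, the enzyme that attaches the lipid, was at 8.86, 12.3, 9.35 and 10.4 CPM in RFP+ MHCIIlo cells and 6.06, 6.19, 8.36 and 6.45 CPM in RFP- MHCIIlo cells (log2 0.59, SE 0.18, adjusted p = 0.0092), and at 2.73, 2.97, 3.68 and 2.67 CPM in RFP+ MHCIIhi cells and 1.35, 0.968, 1.77 and 1.15 CPM in RFP- MHCIIhi cells (log2 1.22, SE 0.22, adjusted p = 7.9e-05). It was higher in MHCIIlo than in MHCIIhi with the label (log2 1.75, adjusted p = 4.8e-08) and without it (2.38, adjusted p = 8.3e-10). The other 4, transport genes, were lower in MHCIIlo cells in both of these comparisons, for example Tmed5 (log2 -0.90 without the label, adjusted p = 9.1e-07).

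R-spondins, which raise Wnt receptor levels, were at low counts and highest outside RFP+ MHCIIlo. Rspo3 averaged 0.531, 0.228, 3.51 and 6.41 CPM and Rspo2 0.165, 0.0853, 0.934 and 2.44 CPM in RFP+ MHCIIlo, RFP- MHCIIlo, RFP+ MHCIIhi and RFP- MHCIIhi, and both were lower in RFP- MHCIIlo than in RFP- MHCIIhi (adjusted p = 2.1e-10 and 6.4e-07). Rspo1 averaged 0.591, 6.99, 1.73 and 5.23 CPM. It fell with the label in MHCIIlo (log2 -3.33, SE 0.52, adjusted p = 9.8e-06), where RFP+ MHCIIlo replicate 4 held nearly all its reads (0, 0, 0.208 and 2.16 CPM in replicates 1 to 4) and the difference was larger without that library (log2 -6.40). Of the 9 genes of R-spondins, Lgr receptors and receptor-removing ligases, 0 were higher and 4 lower with the label in MHCIIlo and 3 were higher and 4 lower in RFP- MHCIIlo against RFP- MHCIIhi, beside 51.6% and 69.1% of all genes called. Rnf43, a ligase that removes Frizzled from the membrane, was 34.4 ± 5.94 CPM in RFP+ MHCIIlo cells, 69.6 ± 2.89 CPM in RFP- MHCIIlo cells, 32.3 ± 3.19 CPM in RFP+ MHCIIhi cells and 36.6 ± 2.15 CPM in RFP- MHCIIhi cells (log2 -1.01, SE 0.10, adjusted p = 1.3e-08 for the label in MHCIIlo). Lgr5, an R-spondin receptor and stem cell marker, averaged 3.32, 2.76, 1.62 and 2.09 CPM and passed in RFP+ MHCIIlo against RFP+ MHCIIhi (log2 1.04, SE 0.29, adjusted p = 0.0039), though not without RFP+ MHCIIlo replicates 1 and 4 together (log2 0.57, adjusted p = 0.15).

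Among other modulators, 11 of the 12 listed could be tested, and 3 were higher and 5 lower with the label in MHCIIlo. Wif1, a Wnt-binding inhibitor, was too low to test. Sostdc1, an inhibitor of Wnt and BMP signals, averaged 3.13, 11.1, 15.9 and 8.01 CPM in RFP+ MHCIIlo, RFP- MHCIIlo, RFP+ MHCIIhi and RFP- MHCIIhi, lower with the label in MHCIIlo (log2 -1.82, SE 0.23, adjusted p = 6.2e-07) and higher with it in MHCIIhi (log2 0.99, SE 0.19, adjusted p = 0.00017). Apcdd1, a membrane inhibitor, averaged 0.672, 3.70, 4.02 and 5.59 CPM (log2 -2.51, SE 0.39, adjusted p = 9.1e-06 in MHCIIlo). Frzb, a relative of the Sfrp genes, had 0.505, 0.0855, 1.19 and 2.66 CPM and was lower in RFP- MHCIIlo than in RFP- MHCIIhi (adjusted p = 7.4e-06).

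Ctnnb1, which encodes beta-catenin, averaged 315, 314, 349 and 317 CPM in RFP+ MHCIIlo, RFP- MHCIIlo, RFP+ MHCIIhi and RFP- MHCIIhi, and passed in none of the 5 comparisons (adjusted p = 0.97, 0.16, 0.21, 0.88 and 0.44). Of the 13 listed genes of the destruction complex and Dishevelled, 7 were higher and 0 lower in RFP+ MHCIIlo against RFP+ MHCIIhi, and 9 were higher and 0 lower in RFP- MHCIIlo against RFP- MHCIIhi. With the label, 2 were higher and 3 lower in MHCIIlo and 3 were higher and 2 lower in MHCIIhi. Counted in either direction, these stand near or below the shares of all genes called, which were also larger between gates than with the label. Between gates every call was in the higher direction, which held for 27.5% of all genes among labelled and 33.5% among unlabelled cells. The median log2 differences of the list were 0.39 and 0.41, against 0.01 and -0.004 over all genes. Dvl1, a Dishevelled adaptor, followed the label at both gates, with 83.9 ± 6.16 CPM in RFP+ MHCIIlo cells, 42.5 ± 5.35 CPM in RFP- MHCIIlo cells, 55.1 ± 5.14 CPM in RFP+ MHCIIhi cells and 29.1 ± 2.14 CPM in RFP- MHCIIhi cells (log2 0.98 in MHCIIlo and 0.92 in MHCIIhi, adjusted p = 7e-09 and 2.5e-08).

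Tcf7 and Lef1, TCF/LEF factors that thymocytes also express, were highest in RFP- MHCIIhi, where thymocyte markers were highest too. Tcf7 averaged 29.0 ± 14.3 CPM in RFP+ MHCIIlo cells, 16 ± 5.20 CPM in RFP- MHCIIlo cells, 91.5 ± 10.8 CPM in RFP+ MHCIIhi cells and 213 ± 56.2 CPM in RFP- MHCIIhi cells, and was lower with the label in MHCIIhi (log2 -1.22, SE 0.23, adjusted p = 0.00013) and lower in unlabelled MHCIIlo than in unlabelled MHCIIhi cells (log2 -3.72, SE 0.27, adjusted p = 1.7e-11). Lef1 averaged 10.7, 10.1, 11.7 and 21.6 CPM in RFP+ MHCIIlo, RFP- MHCIIlo, RFP+ MHCIIhi and RFP- MHCIIhi. All 10 thymocyte markers were lower with the label in MHCIIhi and in RFP- MHCIIlo against RFP- MHCIIhi, and the part of thymocyte RNA in these levels was not tested. Of the 12 listed factors and cofactors, 3 were higher and 2 lower with the label in MHCIIlo and 8 were higher and 2 lower in RFP- MHCIIlo against RFP- MHCIIhi. Pygo1 had the largest difference within MHCIIlo (log2 -1.98, SE 0.20, adjusted p = 1.2e-08).

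Common target genes of the pathway gave no common direction. Axin2, a widely used readout of beta-catenin activity, averaged 11.5 ± 3.34 CPM in RFP+ MHCIIlo cells, 15.5 ± 1.33 CPM in RFP- MHCIIlo cells, 14.1 ± 0.971 CPM in RFP+ MHCIIhi cells and 15.9 ± 1.34 CPM in RFP- MHCIIhi cells. It was slightly lower with the label in MHCIIlo (log2 -0.44, SE 0.15, adjusted p = 0.021), a call lost when RFP+ MHCIIlo replicate 1, or else RFP- MHCIIlo replicate 1 was left out alone (log2 -0.40 to -0.30, adjusted p = 0.051 to 0.082). That call was also lost without RFP+ MHCIIlo replicates 1 and 4 together (log2 -0.25, adjusted p = 0.2). RFP+ MHCIIlo against RFP+ MHCIIhi did not pass for Axin2 (log2 -0.30, SE 0.15, adjusted p = 0.1) but did without RFP+ MHCIIlo replicate 2 (log2 -0.50, adjusted p = 0.0041). Between unlabelled populations its adjusted p was 0.8. Of 18 targets tested from a list of 19, 4 were higher and 7 lower with the label in MHCIIlo, 7 were higher and 6 lower in RFP+ MHCIIlo against RFP+ MHCIIhi, 1 was higher and 4 lower with the label in MHCIIhi and 9 were higher and 5 lower in RFP- MHCIIlo against RFP- MHCIIhi. Of 9 planar polarity genes, 2 were higher and 2 lower with the label in MHCIIlo, with Prickle1 (log2 -1.47, SE 0.30, adjusted p = 0.00023) and Vangl2 (log2 -1.07, adjusted p = 6.3e-07) lower and Celsr3 (1.19, adjusted p = 1.7e-05) and Celsr2 (1.07, adjusted p = 1.3e-08) higher.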

How the data were processed

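RNA-seq of sorted cells was analysed from 1 gene count file per library, 16 in all. The values are raw read counts per Ensembl gene as deposited by the authors. The submitters' processing notes name STAR, DESeq2 and the build GRCm38, and neither these notes nor the labels give the counter, its strand setting or its gene annotation. Symbols came from GENCODE M21, which lacks 884 of the 43432 IDs (0.098% of reads). Depth was 7.93 to 19.46 M reads per library.

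Genes were filtered with filterByExpr in edgeR 4.0.16 (R 4.3.3; minimum count 10, minimum total 15), which left 19617, and normalised by TMM. One quasi-likelihood model with a mean per population was fitted to all 16 libraries, and p-values were Benjamini-Hochberg adjusted over all genes within each of the 5 comparisons, with a threshold of 0.05. Alternatives used limma 3.58.1, DESeq2 1.42.0, other filters and scalings, a replicate block, and fewer libraries. CPM are counts over TMM-scaled library sizes; lengths are merged GENCODE exons. The model was tested on simulated data before use. The labels do not say that the 4 libraries of a population came from separate pools of animals, so p-values measure the spread between these libraries, which may be partly technical. No 2 libraries of a population agreed within sampling noise.

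Every member with 10 or more reads in 4 or more libraries is named. Values per library are given for members with at least 5 CPM in their highest population and a called log2 change above 1 between a pair of populations. At most 4 pathway genes per list and comparison are named, chosen by a fixed order and then by size of change. The members and lists were chosen with earlier results of these data known.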

Additional observations from a re-analysis of the deposited data

Results flagged for a closer look

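For 16 of the 32 reported members, or 50% against 34.1% of all genes, the effect of the RFP label differed between the MHC class II gates. The difference itself was tested in edgeR and is given as the log2 effect in MHCIIlo minus that in MHCIIhi. The effect was lower in MHCIIlo for 12. The receptors among them were Fzd2 at -2.32, Fzd4 at -1.09, Fzd7 at -0.93, Fzd8 at -0.88 and Fzd6 at -0.56. The ligands were Wnt5a at -2.08, Wnt6 at -1.98, Wnt2b at -1.81, Wnt4 at -1.02 and Wnt10a at -0.80, and the inhibitors were Dkk3 at -2.83 and Sfrp1 at -1.44. It was higher in MHCIIlo for Wnt7a at 3.35, Wnt8b at 2.81, Wnt3 at 2.57 and Sfrp5 at 1.86. Marker genes moved too, beside 16.6% of all genes lower and 17.5% higher by the same difference. Lower were 6 of 10 mesenchymal, 5 of 5 mesothelial, 5 of 9 endothelial, 5 of 6 tuft and 3 of 5 epithelial markers. All 5 tested basal markers were lower, and Ccl21a of that list of 6 was not tested. All 10 thymocyte markers (median 2.90), 4 of 6 cornified, 3 of 6 cortical, 1 of 5 mTEC and 1 of 6 myeloid markers were higher. No B cell marker was called. Their part in the members' values was not tested.

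In 3 of 128 groups of 4 libraries, 1 library stood far from the other 3 by Dixon's test, which chance gives in about 1 group of 20. Fzd8 was at 6.00 CPM in RFP+ MHCIIhi replicate 1, against 4.42 to 4.61 CPM in the other 3. Sfrp1 was at 77.6 CPM in RFP+ MHCIIlo replicate 2, against 93.6 to 95.0 CPM. Wnt1 had 0.249 CPM in replicate 4 of RFP+ MHCIIlo and no read in the other 3.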

How the results depend on the processing

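Of 103 member differences called over the 5 comparisons, 86 were called under every alternative that gave a value (23 or 24 for each) and 17 were lost under at least 1; none that was called reversed. A fit of only 2 populations gave no value for the difference of label effects or for a gene below its read minimum there. Among the pathway genes named, 98 of 112 were called throughout. Of the counts of members, the 7 higher with the label in MHCIIlo were 3 with only those 2 populations in the fit, where the spread rests on 8 libraries, and 4 to 8 when single libraries were left out. The 5 higher in RFP+ MHCIIlo against RFP+ MHCIIhi were 3 to 5 when single libraries were left out. The other counts of members and of all genes stayed within 1.5 times. Another scaling moved the median of all genes by less than 0.1 (log2).

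With the replicate number as a block, 7 members were higher and 16 lower with the label in MHCIIlo, as without it, and no member call changed; of the pathway genes, Frzb for the label in MHCIIlo (log2 2.45, adjusted p = 0.053) and Apc2 for the difference of label effects (-1.11, adjusted p = 0.059) were lost. Same-numbered libraries deviated together only weakly, with r from -0.019 to 0.129 over 24 pairs, 4 of them over 0.1. Yet 15 of 16 libraries correlated best with a library of their own number, so the numbers may mark pairs. The main fit did not use the numbers, and the block fit did. Depth limits Wnt1, Wnt2, Wnt7a and Wnt9b most, which had few reads in MHCIIlo cells. It also limits Wnt3 and Dkk1, each with 15 reads in the 4 RFP- MHCIIlo libraries together.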
